A study of Homo sapiens with 18 samples.

Results

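The effect of the BET inhibitor i-BET858 on OVCAR-3 cells was compared between 4 and 24 h of treatment, and the transcripts whose response differed between the 2 times were sorted by the shape of that response. OVCAR-3 is an established line of high-grade serous ovarian carcinoma. The cells were grown in 12-well plates and treated in stripped medium with the vehicle DMSO or with 1 µM i-BET858, and poly-A enriched RNA was sequenced after 4 or 24 h. Each of these 4 groups held 3 libraries, which the study's methods call biological replicates, and each time had its own DMSO controls. These are 12 of the 18 libraries of the series, the other 6 being cells given 1 µM i-BET151. What is described here therefore holds for a single cell line, dose and medium.

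For every transcript the effect of i-BET858 at a given time was the log2 fold change over the DMSO libraries of the same time, and the change of effect was the effect at 24 h minus the effect at 4 h. Of 58825 genes listed, 18154 had enough counts to be tested, and these entered a single edgeR model, tested by quasi-likelihood with Benjamini-Hochberg adjustment. A difference was called where the adjusted p was under 0.05 and the fold at least 2. Transcripts called at 4 h but not at 24 h, with a called change of effect, were named transient, and those called at both times in the same direction with no called change were named sustained. Late transcripts were called at 24 h but not at 4 h, again with a called change. Reversing transcripts had an adjusted p under 0.05 at both times with opposite signs and a called change. Where a response kept its sign but the change was called, the transcript was named strengthened or weakened. How reads were assigned to strands is not given in the sources used here. Since 8829 of the tested genes (48.6%) overlap an exon of another gene, those named here with such an overlap are pointed out, as their reads cannot always be told apart. In all, 5576 of the 18154 transcripts (30.7%) were called at 4 h, at 24 h or in the change, and 12578 were not.

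BET proteins bind acetylated histones through paired bromodomains and bring the kinase complex P-TEFb to promoters and enhancers, where it releases paused RNA polymerase II. Inhibitors such as i-BET858 occupy the acetyl-lysine pocket and displace the proteins from chromatin. HEXIM1, the protein that holds P-TEFb inactive in the 7SK ribonucleoprotein, is a widely used marker of exposure to these drugs. Since displacement is fast, early RNA changes are commonly read as closer to the drug, whereas later ones can also follow from altered transcription factors, signalling or cell state, and RNA sequencing alone does not separate these.

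Library totals ran from 27534213 to 46299994 counts with a median of 32260750. The 4 libraries of replicate 3 had fewer genes with a count (18634 to 20642) than those of replicates 1 and 2 (23674 to 24947), and each number was present in all 4 groups. All 11 serous epithelial markers examined, among them PAX8 and MUC16, were present in all 12 libraries. Their summed level was 6660 to 7452 CPM (counts scaled by library size) in the i-BET858 libraries at 24 h, against 8859 to 11645 CPM in the other groups. The keratins KRT7, KRT8 and KRT18 made up most of that sum and of its difference, since the other 8 markers summed to 2005 to 2200 CPM in those libraries and to 1840 to 2412 CPM in the other groups. Of 5 leukocyte markers CD3E had no count in any library and CD68 none in 11, while CD14 had 0.769 to 2.15 CPM in all 12. As these are bulk samples, fewer cells of a kind and less RNA per cell cannot be told apart.

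At 4 h, 2481 transcripts were called (13.7% of those tested), 1222 higher (6.73%) and 1259 lower (6.94%) with i-BET858. At 24 h there were 3380 (18.6%), of which 1397 were higher (7.7%) and 1983 lower (10.9%). The effect itself changed for 2738 transcripts (15.1%), moving upwards in 1247 (6.87%) and downwards in 1491 (8.21%). Which direction held more transcripts depended on the threshold, with 2648 upwards and 2293 downwards by the adjusted p alone and 2368 and 2121 at a fold of at least 1.5. The shares of 6.87% and 8.21% are the background against which each gene group is set. Scaling to total library size in place of TMM moved the median effect over all transcripts to -0.14 at 4 h, -0.11 at 24 h and 0.03 for the change (0.02, 0.01 and 0.00 with TMM), and the share of 4 h calls that were higher went from 49.3% to 36.7%.

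Transcripts that were lower were the larger part of the transient, late and reversing classes, and those that were higher the larger part of the sustained class. There were 623 transient transcripts, 175 initially higher (0.964%) and 448 initially lower (2.47%). With replicates 1 and 2 alone these counts were 383 and 534. Sustained transcripts numbered 851, 583 higher (3.21%) and 268 lower (1.48%), so that 68.5% of this class were higher. With total library size that share was 55%. The late class was the largest of those with a called change, with 1174 transcripts, 221 higher (1.22%) and 953 lower (5.25%). By the adjusted p alone 821 were late and higher and 1379 late and lower, and at a fold of at least 1.5 there were 631 and 1261. A further 348 reversed, 96 of them from higher to lower (0.529%) and 252 from lower to higher (1.39%). The count from higher to lower was 47 with total library size, 61 without DMSO replicate 2 at 4 h, 153 with at least 10 counts in every library and 245 with replicates 1 and 2 alone. With the replicate number as a block within each time the reversing class held 692 transcripts, 235 from higher to lower and 457 from lower to higher, with 346 of them shared with the 348. The 70 strengthened transcripts comprised 28 higher and 42 lower, and the 57 weakened ones 48 higher and 9 lower. Another 466 had a called change that none of these classes covers, and 1987 were called at 4 or 24 h without the calls needed for any class.

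**Figure D1:**
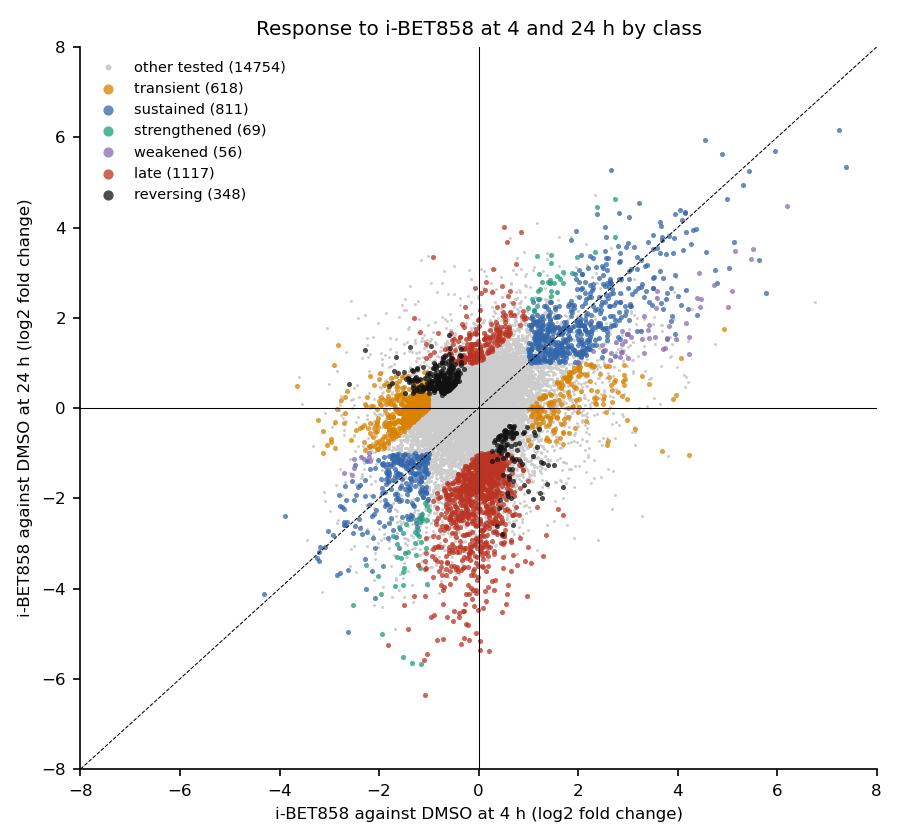
Log2 fold change of i-BET858 over DMSO at 24 h (vertical) against that at 4 h (horizontal), 1 point per transcript, coloured by class; 381 transcripts with 3 counts or fewer in a group are left out, and the dashed line marks equal effects. Transient points lie along the horizontal axis and late points along the vertical one, sustained points flank the diagonal, and the 348 reversing points lie in the quadrants of opposite sign.

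The medians show the shape of each class as a description, since the classes were cut from these values. Initially higher transient transcripts had a median log2 effect of 1.73 at 4 h and 0.17 at 24 h, and initially lower ones -1.39 and -0.02. Sustained transcripts held 1.99 and 1.81 where higher and -1.57 and -1.54 where lower. Late transcripts went from -0.01 to 1.43 or from 0.03 to -1.92, and reversing ones from 0.61 to -0.86 or from -0.73 to 0.59. A transient response had not always ended at 24 h. Of the transient transcripts, 38 of 175 initially higher and 51 of 448 initially lower ones kept an adjusted p under 0.05 at 24 h. Their effect was then in the same direction but under 2-fold. A change that is not called does not show equal effects. For 295 of the 851 sustained transcripts (34.7%) the 95% interval of the change lay within 2-fold either way.

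The movement between 4 and 24 h took place in the treated cells and hardly in the controls. Of 18154 transcripts, a single one (0.00551%) was called between 24 and 4 h in DMSO, namely WNT11, whose exons overlap a gene on the opposite strand, with 7 by adjusted p alone and 1664 at an unadjusted p under 0.05. In i-BET858, 3199 were called between the times. Of the 2738 transcripts with a changed effect, 2109 (77%) were called between the times in i-BET858 and 0 in DMSO, and 2684 (98%) shifted more in i-BET858 than in DMSO. Their median absolute shift was 1.35 on the log2 scale in i-BET858 and 0.22 in DMSO.

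**Figure D2:**
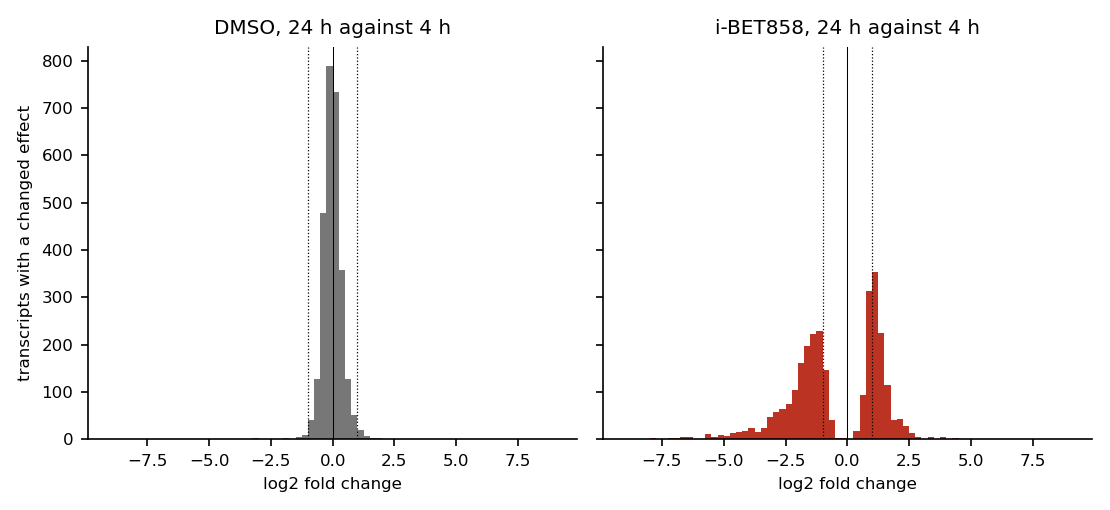
Distribution of the log2 fold change from 4 to 24 h for the 2738 transcripts with a changed effect, in DMSO (left) and in i-BET858 (right), as numbers of transcripts; dotted lines mark a fold of 2. The DMSO values gather around 0, with a median absolute shift of 0.22, whereas the i-BET858 values form a lower and a higher group.

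The initially higher transient transcripts named by size of change, among coding genes whose mean log2 CPM reached 1, were KDR, ANGPTL4, APLN and ZNF296. KDR, the main receptor of vascular endothelial growth factor, stood at 1.26, 0.979 and 1 CPM in DMSO and 5.4, 8.83 and 11.6 CPM in i-BET858 at 4 h. At 24 h it was 0.636, 0.909 and 2.42 CPM in DMSO and 1.09, 0.583 and 1.61 CPM in i-BET858. The groups were apart at 4 h and overlapped at 24 h, and the change of effect was -3.27 (SE 0.69, adjusted p = 0.00184). ANGPTL4, an inhibitor of lipoprotein lipase that is also induced by hypoxia, went from a log2 effect of 3.43 at 4 h to 0.54 at 24 h, and APLN, which encodes the peptide apelin, from 2.98 to 0.21. The zinc finger gene ZNF296 fell from an effect of 2.57 to -0.08. KDR is itself an endothelial marker, and VWF, another of the 4 examined, lay between 1.43 and 4.98 CPM in all libraries. The other pair, PECAM1 and CDH5, reached at most 0.347 and 0.39 CPM.

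Some immediate early genes, which growth factor signalling switches on within minutes, were higher at 4 h, and some of the list changed downwards by 24 h. Of 37 tested, 14 were higher at 4 h and 9 at 24 h. The change was called downwards for 9 (24.3%) and upwards for 1 (2.7%), with a median change of -0.36 beside 0.00 over all transcripts. SNAI1, a repressor of E-cadherin, held 4.33, 3.48 and 4.95 CPM in DMSO and 23.3, 16.9 and 25.4 CPM in i-BET858 at 4 h, then 2.88, 3.91 and 4.43 CPM in DMSO and 3.42, 4.89 and 3.74 CPM in i-BET858 at 24 h. All i-BET858 libraries were above all DMSO libraries at 4 h only, and the change was -2.26 (SE 0.32, adjusted p = 6.56e-05). CCN1, a matricellular protein, and JUNB, an AP-1 subunit, were likewise transient, with effects of 1.32 and 1.17 at 4 h and -0.06 and -0.04 at 24 h. ZFP36, which binds AU-rich messages and speeds their decay, went from 1.84 to 0.68. The member that moved upwards was ID2, an inhibitor of basic helix-loop-helix factors, with 324, 490 and 395 CPM in i-BET858 and 101, 124 and 130 CPM in DMSO at 24 h and a change of 1.41. Other members stayed up, so that FOS, EGR1 and ATF3 were among 7 classed as sustained. Exons of JUNB and ID2 overlap a gene on the opposite strand.

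Of 22 feedback genes of the MAPK pathway, which are targets of the same signalling, 9 were higher and 3 lower at 4 h. At 24 h 2 were higher and 6 lower. The change was called downwards for 6 of 22 (27.3%) and upwards for 1 (4.55%), with a median change of -0.65. DUSP7, a phosphatase acting on ERK, was 11.4, 13.7 and 16.7 CPM in DMSO and 34.6, 47 and 32.1 CPM in i-BET858 at 4 h, and its effect went from 1.44 to 0.12. Among ligands of the epidermal growth factor receptor family, HBEGF weakened from 2.67 to 1.21 (change -1.46, SE 0.32), BTC was late and lower, at -1.67, and NRG1 strengthened from -1.27 to -2.74. The receptor gene ERBB3 reversed, from 0.46 to -0.70. NRG1 and ERBB3 share exon sequence with other genes.

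Genes of the unfolded protein and amino acid stress responses rose early in part and then moved down. Of 42 tested, 9 were higher and 2 lower at 4 h, against 3 and 3 at 24 h. The change was called downwards for 11 (26.2%) and upwards for 0, where edgeR at an unadjusted p under 0.05 gave 4 upwards and DESeq2 gave 0. The median change was -0.62. HERPUD1, which acts in degradation at the endoplasmic reticulum, held 42.1, 28.6 and 35.8 CPM in DMSO and 125, 101 and 93.5 CPM in i-BET858 at 4 h. At 24 h the levels were 30.7, 29.8 and 33.4 CPM in DMSO and 24.2, 28.2 and 29.3 CPM in i-BET858, a change of -1.78 (SE 0.22, adjusted p = 2.02e-05). CHAC1, which degrades glutathione downstream of ATF4, went from 1.65 to 0.08, and DDIT4, an inhibitor of mTORC1, from 1.70 to -0.52. Of the 42, 4 reversed from higher to lower, which were HSPA5, CRELD2, CALR and CEBPB. HSPA5 (BiP), a chaperone of the same compartment, was 1562, 1220 and 1173 CPM in DMSO and 2388, 2248 and 2022 CPM in i-BET858 at 4 h, but 1252, 1221 and 1122 CPM in DMSO and 854, 815 and 792 CPM in i-BET858 at 24 h. CALR reversed in the same way, from 0.72 to -0.39. XBP1, the transcription factor of this response, was lower at both times and more so at 24 h, with 297, 263 and 269 CPM in DMSO and 161, 186 and 191 CPM in i-BET858 at 4 h and 298, 287 and 376 CPM in DMSO and 80.4, 78.7 and 80.8 CPM in i-BET858 at 24 h. It was classed as late because the 4 h effect of -0.62 did not reach 2-fold. Exons of CALR, CRELD2 and CEBPB overlap genes on the opposite strand.

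Transient rises also included cell death genes. BIK, a BH3-only protein, had 1.26, 1.65 and 2.48 CPM in DMSO and 6.75, 8.43 and 6.56 CPM in i-BET858 at 4 h and then 1.61, 1.45 and 2.96 CPM in DMSO and 2.26, 2.75 and 1.96 CPM in i-BET858 at 24 h, so that its groups were apart at 4 h and overlapped at 24 h. PMAIP1 (NOXA), which antagonises MCL1, went from an effect of 1.85 to 0.53, with i-BET858 above DMSO in all libraries at both times. PMAIP1 is also a known target of p53, which is mutant in OVCAR-3. Of 34 p53 target genes tested, 12 were higher at 4 h and 7 at 24 h, and the change was called upwards for 4 (11.8%) and downwards for 8 (23.5%). TNFRSF10D, a decoy receptor of TRAIL, was at 31.2, 30.7 and 32.9 CPM in DMSO and 99.5, 111 and 121 CPM in i-BET858 at 4 h and at 29.8, 28.7 and 33.5 CPM in DMSO and 34.5, 33.8 and 42.3 CPM in i-BET858 at 24 h. SESN2, a stress-induced inhibitor of mTORC1, was also transient, with a change of -1.36. SFN (14-3-3 sigma) was late and lower, at -2.02, whereas ZMAT3 was late and higher, at 1.02.

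G1 cyclins of the E type were among the initially higher genes too. CCNE1 held 156, 169 and 171 CPM in DMSO and 359, 459 and 337 CPM in i-BET858 at 4 h, and 169, 183 and 167 CPM in DMSO and 128, 136 and 110 CPM in i-BET858 at 24 h. It reversed, from an effect of 1.22 (adjusted p = 1.31e-06) to -0.47 (adjusted p = 0.00846). CCNE2, whose exons overlap a gene on the opposite strand, was transient, at 1.66 and -0.35. Of the 47 replication genes tested, 5 changed downwards (10.6%) and 0 upwards, where 5 were upwards at an unadjusted p under 0.05 in edgeR and DESeq2 called 0. With replicates 1 and 2 alone and with total library size 1 was upwards.

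The initially lower transient transcripts included genes of the zinc finger, Mediator and histone enzyme lists. DACT2, an inhibitor of WNT and TGF-beta signalling, stood at 15.5, 13.4 and 16.6 CPM in DMSO and 1.93, 1.97 and 2.76 CPM in i-BET858 at 4 h. By 24 h DMSO libraries held 13.1, 15.3 and 14.5 CPM and i-BET858 libraries 13.7, 18.6 and 16 CPM. The groups were well apart at 4 h and overlapped at 24 h, a change of 2.94 (SE 0.29, adjusted p = 2.14e-06). Zinc finger genes named ZNF, most of which encode DNA-binding repressors of the KRAB type, were the largest of these lists by number of members. Of 454 tested, 103 were lower at 4 h and 29 at 24 h, and the change was called upwards for 79 (17.4%) and downwards for 7 (1.54%), with a median change of 0.51. The downward count was 11 with the replicate block within each time, 12 with DESeq2 and 21 with replicates 1 and 2 alone. Of the 454, 53 (11.7%) were transient and lower, beside 2.47% of all transcripts, 12.5% of Mediator genes and 9.62% of histone enzymes. They lay both in the clusters of chromosome 19 (30 of 218 tested) and elsewhere (23 of 236).

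ZNF772 fell from 15.5, 11.5 and 12.8 CPM in DMSO to 2.23, 1.81 and 2.16 CPM in i-BET858 at 4 h and had 10.9, 9.9 and 12.4 CPM in DMSO and 12.2, 10.2 and 17 CPM in i-BET858 at 24 h. ZNF559, also on chromosome 19, had an effect of -2.11 at 4 h and 0.51 at 24 h. ZNF780B went further and reversed, from 107, 131 and 107 CPM in DMSO and 38.1, 37.6 and 37 CPM in i-BET858 at 4 h to 120, 114 and 68.5 CPM in DMSO and 196, 178 and 142 CPM in i-BET858 at 24 h, with i-BET858 below all controls first and above all of them later. JRK, a DNA-binding protein with homology to transposases, was down to 3.72, 3.87 and 3.81 CPM at 4 h from 23.5, 25.5 and 32.5 CPM in DMSO, and its effect at 24 h was -0.03 (SE 0.19). ZNF703, a corepressor gene of another zinc finger family, moved the other way and is described with the reversing genes. ZNF772, ZNF559, ZNF780B and JRK share exon sequence with annotated neighbours, and similar zinc finger genes can share reads, so their counts are less certain than those of isolated genes.

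Some genes of Mediator, the complex that links activators to RNA polymerase II, and of the enzymes that acetylate and methylate histones also changed upwards. Of 32 Mediator genes, 7 were lower at 4 h and 1 at 24 h, and the change was called upwards for 9 (28.1%) and downwards for 1 (3.12%), with a median change of 0.66. MED8 had 29.1, 33.6 and 23.9 CPM in DMSO and 13, 10.1 and 8.58 CPM in i-BET858 at 4 h, then 30.1, 31.1 and 28.2 CPM in DMSO and 32.3, 35.6 and 32.6 CPM in i-BET858 at 24 h, a change of 1.62 (SE 0.23, adjusted p = 6.56e-05). MED1, the subunit bound by nuclear receptors, went from -1.34 to 0.26 and MED7 from -1.37 to -0.12. The exception was MED24, late and lower at -1.17. Of 52 histone enzymes, 13 changed upwards (25%) and 1 downwards (1.92%), with a median change of 0.51. EP300, the acetyltransferase p300, was 75.1, 78.5 and 118 CPM in DMSO and 33.2, 43.6 and 48 CPM in i-BET858 at 4 h, and 65.5, 64.6 and 54.6 CPM in DMSO and 81.7, 69.5 and 84.5 CPM in i-BET858 at 24 h. Its i-BET858 libraries lay below all controls at 4 h and above all of them at 24 h, although the 24 h effect of 0.35 did not pass (adjusted p = 0.142). KAT5 (TIP60) changed by 1.67, and DOT1L, the H3K79 methyltransferase, reversed from -0.97 to 0.53. KAT2A was the member that moved down, late and at -1.32. Exons of MED8, MED1, MED7, MED24, EP300, KAT5, DOT1L and KAT2A overlap other genes.

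Of 29 genes of P-TEFb, 7SK and elongation complexes, 4 were sustained and higher, namely HEXIM1, ELL2, CTR9 and BRD2. HEXIM1 held 187, 207 and 165 CPM in DMSO and 701, 725 and 613 CPM in i-BET858 at 4 h, and 198, 206 and 165 CPM in DMSO and 678, 708 and 585 CPM in i-BET858 at 24 h. The effect was 1.87 (SE 0.12) and then 1.79 (SE 0.12), a change of -0.07 with a 95% interval from -0.42 to 0.28. ELL2, an elongation factor of the super elongation complex, was also sustained, at 2.03 and 1.99, as did CTR9 of the PAF1 complex, at 1.29 and 1.35. NELFA, a subunit of the pausing factor NELF, was the 1 of 29 genes of this list (3.45%) with a called change. With the replicate block within each time, and also with total library size, 2 of the 29 changed upwards. NELFA went from 49.3, 47.7 and 54.5 CPM in DMSO and 14.5, 12.4 and 14.4 CPM in i-BET858 at 4 h to 52.8, 47.1 and 52.5 CPM in DMSO and 35, 40 and 40.4 CPM in i-BET858 at 24 h. Exons of HEXIM1, CTR9 and NELFA overlap other genes.

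Of the BET genes described here, BRD2 was sustained, with 191, 181 and 179 CPM in DMSO and 498, 460 and 429 CPM in i-BET858 at 4 h and 146, 164 and 98.7 CPM in DMSO and 256, 299 and 285 CPM in i-BET858 at 24 h. BRD3 was not called at either time (0.37 and 0.55). Exons of BRD2 and BRD3 overlap other genes.

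Sustained transcripts included the cell cycle inhibitor CDKN1A (p21), at 9.55, 9.74 and 4.98 CPM in DMSO and 175, 171 and 121 CPM in i-BET858 at 4 h and 9.3, 7.41 and 6.15 CPM in DMSO and 85.2, 86.3 and 114 CPM in i-BET858 at 24 h. CDKN2B (p15), an inhibitor of CDK4 and CDK6, was higher at both times, by 1.99 and 1.01. Its change of -0.98 (adjusted p = 0.000118) stopped just short of 2-fold and passed under 10 of the alternative settings. Among these were the adjusted p alone and a fold of at least 1.5, which only relax the fold limit on the same fit. NGFR, the low-affinity neurotrophin receptor, was among the largest sustained rises, from 1.87, 1.86 and 1.29 CPM in DMSO to 47.4, 61.9 and 39.8 CPM in i-BET858 at 4 h and from 1.42, 1.41 and 0.414 CPM to 52.8, 55.1 and 52.7 CPM at 24 h. The 24 h DMSO libraries of GFPT2, an enzyme of the hexosamine pathway, held 0.273, 0.101 and 0 CPM and the i-BET858 libraries 6.6, 6.22 and 7.37 CPM, while at 4 h the levels were 0.276, 0.206 and 0.47 CPM in DMSO and 17.1, 29.9 and 12.3 CPM in i-BET858. MAFA, a transcription factor known from pancreatic beta cells, was at 64.2, 64.1 and 52.6 CPM in i-BET858 at 4 h and 13.7, 14.7 and 14.3 CPM at 24 h, where DMSO never exceeded 0.645 CPM. Its change of -2.06 was not called (adjusted p = 0.0668) but was with the replicate block within each time (-2.07, adjusted p = 0.0198). MAP3K3 was sustained as well, at 1.62 and 2.04. Exons of CDKN1A, NGFR and MAP3K3 overlap genes on the opposite strand.

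Several secreted regulators were lower at both times. NOG, the BMP antagonist noggin, was 45.7, 51.8 and 56.4 CPM in DMSO and 4.85, 6.89 and 4.49 CPM in i-BET858 at 4 h, and 61.9, 61.6 and 65.3 CPM in DMSO and 5.49, 6.75 and 6.52 CPM in i-BET858 at 24 h. TMEM100, a membrane protein downstream of BMP signalling in endothelium, had effects of -3.02 and -2.72. LIF, a cytokine of the interleukin-6 family, was 18.9, 37.6 and 29.7 CPM in DMSO and 2.08, 1.84 and 0.455 CPM in i-BET858 at 4 h, then 21.1, 23.8 and 11.9 CPM in DMSO and 1.55, 1.44 and 0.234 CPM in i-BET858. The change of LIF was 0.21 with an SE of 0.79, so its size is poorly fixed. WNT5A, a ligand of the non-canonical WNT pathway, had effects of -2.71 and -2.52. The exons of LIF overlap a gene on the opposite strand.

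Replication-dependent histone genes were higher at both times in large part. Their messages normally end in a stem-loop without a poly-A tail, so that a poly-A library mainly captures the tailed fraction. Of 52 tested, 35 were higher at 4 h and 34 at 24 h, 27 were classed as sustained and higher, and 5 (9.62%) changed upwards and 0 downwards, where 0 were also downwards at an unadjusted p under 0.05 and with DESeq2, and 1 with replicates 1 and 2 alone. H2AC11 held 11.1, 9.72 and 6.61 CPM in DMSO and 51, 54.2 and 32.8 CPM in i-BET858 at 4 h, but 11.6, 10.7 and 8.12 CPM in DMSO and 116, 105 and 112 CPM in i-BET858 at 24 h. Its change was 1.12 (SE 0.30, adjusted p = 0.0101), and it was under 2-fold without DMSO replicate 1 at 4 h, DMSO replicate 3 at 24 h or i-BET858 replicate 3 at 4 h, and with replicates 1 and 2 alone, the lowest value over all settings being 0.90. H3C8 strengthened more, by 1.77, from 10.5, 11 and 7.22 CPM in i-BET858 at 4 h to 37.8, 39.6 and 37.3 CPM at 24 h, while DMSO stayed between 2.79 and 4.79 CPM. H3C10 was classed as sustained with a change of 1.03 (adjusted p = 0.0548), which was called with the replicate block within each time (1.11, adjusted p = 0.000574). Histone genes are near-identical copies, and how reads were divided among them is not given in the sources used here.

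The H2AC11 promoter is shown because this gene strengthened within the group, and because a TATA box and CCAAT boxes are common in such promoters. It was chosen among strengthened members for holding both kinds of box, so the marked matches follow from this choice. H3C8 (change 1.77), H4C8 (1.24) and H2AC8 (1.22) strengthened more than H2AC11 (1.12) and were passed over. The sequence covers the 250 bases before the start, at chr6:27132793-27133042 on the plus strand (RefSeq sequence, GRCh38.p14). Capitals mark TATAAA and CCAAT, searched on both strands, so that CCAAT on the other strand appears as ATTGG and TATAAA as TTTATA.
H2AC11: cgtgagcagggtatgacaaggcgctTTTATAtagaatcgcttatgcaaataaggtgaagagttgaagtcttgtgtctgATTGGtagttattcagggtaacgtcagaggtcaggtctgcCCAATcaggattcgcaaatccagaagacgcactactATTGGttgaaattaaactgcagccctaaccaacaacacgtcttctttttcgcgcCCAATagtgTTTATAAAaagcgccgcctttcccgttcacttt
Over the whole window from 250 bases before to 50 after the start, TATAAA was found in 31 of 48 promoters of these histone genes (64.6%), and in 763 of all 12371 tested genes with a promoter sequence (6.17%). CCAAT was found in 39 of 48 (81.2%) and in 36.4% of all. TATAAA was also found in 18 of 121 initially higher transient promoters (14.9%) and 61 of 416 sustained higher ones (14.7%), or 45 of 389 (11.6%) without the histone genes. It was found in 17 of 359 initially lower transient ones (4.74%) and 10 of 164 late higher ones (6.1%). Promoter sequences matched 68.1% of the tested genes, and a match is a description of the letters only.

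Strengthened genes also included DHRS2, a mitochondrial reductase, with 8.94, 11.2 and 6.08 CPM in DMSO and 63.5, 46.4 and 26.5 CPM in i-BET858 at 4 h and 10.7, 9.8 and 10.1 CPM in DMSO and 202, 228 and 242 CPM in i-BET858 at 24 h. The change was 2.08 (SE 0.34, adjusted p = 0.000187). EFR3B, which anchors a phosphatidylinositol kinase at the plasma membrane, went from an effect of 2.74 to 4.63. ARMH4 rose from 1.18 to 3.37, and shares exon sequence with a neighbour. In the other direction, ADGRF1, an adhesion G protein-coupled receptor, was 31.7, 18.7 and 32.2 CPM in DMSO and 9.89, 6.2 and 16.4 CPM in i-BET858 at 4 h and fell to 0.762, 0.5 and 0.38 CPM at 24 h, beside 25.8, 23.2 and 36 CPM in DMSO. CRB2, a determinant of apical polarity, had 15 counts in all i-BET858 libraries at 24 h together and 617 in DMSO, while at 4 h it had 179 and 443. DKK2, a WNT antagonist, strengthened from -1.04 to -3.90. ZHX2, a zinc finger and homeobox repressor, strengthened from -1.41 to -3.18. The exons of CRB2 overlap a gene on the opposite strand.

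Weakened responses were mostly large early rises, and Notch genes were among them. DLL4, a ligand of the pathway, had 36 counts in all DMSO libraries at 4 h and 2425 in i-BET858, and 35 and 976 at 24 h. Its change of -1.73 (adjusted p = 0.0159) lost the call without DMSO replicate 2 at 4 h or without DMSO replicate 2 at 24 h (adjusted p up to 0.082). NRARP, a feedback inhibitor that Notch induces, was 21, 23.9 and 14.3 CPM in DMSO and 357, 325 and 247 CPM in i-BET858 at 4 h, and 29.7, 28.3 and 19.5 CPM in DMSO and 76.2, 79.7 and 68.1 CPM in i-BET858 at 24 h. The change was -2.44 (SE 0.28, adjusted p = 8.61e-06). The receptor NOTCH1 and the target HES6 were sustained, at 1.72 and 1.25 and at 3.51 and 2.66. Of 27 Notch genes, 7 (25.9%) changed downwards and 1 (3.7%) upwards, with a median change of -0.51. Exons of NRARP overlap a gene on the opposite strand.

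PGF, placental growth factor, weakened from 2.06, 2.19 and 1.41 CPM in DMSO and 43.7, 31.6 and 30.5 CPM in i-BET858 at 4 h to 2.88, 3.06 and 2.93 CPM in DMSO and 6.29, 6.81 and 7.37 CPM in i-BET858 at 24 h (change -3.01, SE 0.31, adjusted p = 3.65e-06). SP6, a transcription factor of the SP family, went from an effect of 5.01 to 2.24, and HAS3, a hyaluronan synthase, from 4.22 to 1.58. All i-BET858 libraries of these 3 genes were above the controls at both times. Among the weakened losses, IL1R1, the interleukin-1 receptor, was 217, 246 and 239 CPM in DMSO and 39.9, 38.5 and 44.8 CPM in i-BET858 at 4 h, and 226, 230 and 181 CPM in DMSO and 116, 96.3 and 79.1 CPM in i-BET858 at 24 h. FST, the activin antagonist follistatin, weakened from -2.51 to -1.32 (change 1.19, SE 0.20). Exons of HAS3 and IL1R1 overlap genes on the opposite strand.

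**Figure D3:**
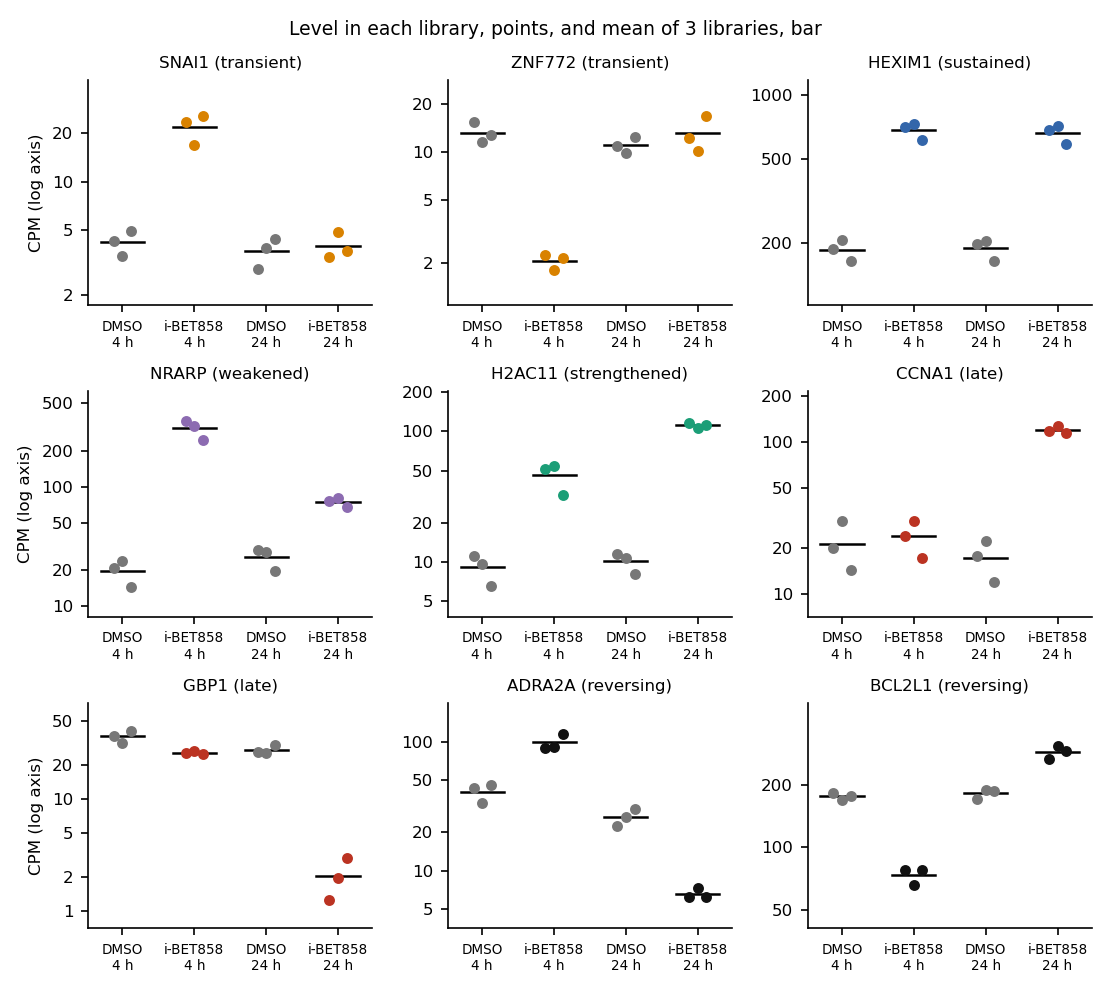
Level of 9 genes in each of the 12 libraries, as CPM on a log axis, with points for single libraries and bars for the group mean, in DMSO and i-BET858 at 4 and 24 h. SNAI1 and ZNF772 are transient, HEXIM1 sustained, H2AC11 strengthened, NRARP weakened, CCNA1 and GBP1 late, and ADRA2A and BCL2L1 reversing.

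Late transcripts that were lower included many interferon-stimulated genes. These are induced when interferon-activated transcription factors bind a response element in their promoters, and tumour cells often express some of them without added interferon. Of 41 tested, 3 were higher and 3 lower at 4 h, whereas 2 were higher and 25 lower at 24 h. The change was called downwards for 24 (58.5%) and upwards for 1 (2.44%), and 21 (51.2%) were late and lower, beside 5.25% of all transcripts. The median effect was -0.05 at 4 h and -1.92 at 24 h, with a median change of -1.58, or -1.54 without a gene that had 3 counts or fewer in a group. With replicates 1 and 2 alone 29 changed downwards, and with total library size 23.

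The promoters of 4 late lower genes are shown, since the response element is what most of the list shares. They had the largest changes among late lower members whose promoter held the element, so the marked matches follow from this choice. Members without a match or a promoter sequence were passed over, among them TRIM22 (change -5.38) and OAS1 (-4.18). Each sequence covers 250 bases before the start in RefSeq on GRCh38.p14, written 5′ to 3′ on the strand of the gene. They lie at chr1:78620198-78620447 on the plus strand (IFI44L), chr1:89065209-89065458 on the minus strand (GBP1), chr19:17405631-17405880 on the minus strand (BST2) and chr11:313790-314039 on the plus strand (IFITM1). Capitals mark the core TTTCNNTTTC or its reverse complement. In BST2 overlapping matches are joined.
IFI44L: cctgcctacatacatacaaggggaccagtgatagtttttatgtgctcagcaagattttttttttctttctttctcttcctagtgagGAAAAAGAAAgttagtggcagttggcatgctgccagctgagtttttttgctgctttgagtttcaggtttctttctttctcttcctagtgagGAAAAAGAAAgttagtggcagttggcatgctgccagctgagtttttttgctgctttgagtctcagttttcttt
GBP1: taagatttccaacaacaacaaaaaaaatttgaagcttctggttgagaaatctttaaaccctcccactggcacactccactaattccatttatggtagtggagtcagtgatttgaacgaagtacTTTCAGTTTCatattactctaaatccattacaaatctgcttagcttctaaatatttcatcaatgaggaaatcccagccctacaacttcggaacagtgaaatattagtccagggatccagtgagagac
BST2: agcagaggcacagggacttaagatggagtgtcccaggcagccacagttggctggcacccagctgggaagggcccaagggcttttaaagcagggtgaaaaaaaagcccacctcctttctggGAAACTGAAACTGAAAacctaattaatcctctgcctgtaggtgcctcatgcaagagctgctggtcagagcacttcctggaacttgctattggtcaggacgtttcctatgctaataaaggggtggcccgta
IFITM1: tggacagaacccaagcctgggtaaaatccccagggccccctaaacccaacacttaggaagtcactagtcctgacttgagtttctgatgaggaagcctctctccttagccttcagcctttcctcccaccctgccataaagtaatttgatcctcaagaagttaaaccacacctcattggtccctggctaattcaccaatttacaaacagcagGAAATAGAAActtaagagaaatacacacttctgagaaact
The motif was chosen after the values of these genes had been seen. In the window up to 50 bases after the start it was found in 24 of 32 interferon-stimulated promoters (75%), in 37 of 686 late lower ones (5.39%), or 23 of 668 (3.44%) without the listed interferon-stimulated genes, and in 334 of 12371 of all (2.7%).

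GBP1, a guanylate-binding protein, held 37, 31.9 and 40.6 CPM in DMSO and 26, 26.7 and 25.5 CPM in i-BET858 at 4 h. At 24 h it was 26.5, 25.7 and 30.7 CPM in DMSO and 1.24, 1.97 and 2.95 CPM in i-BET858, a change of -3.28 (SE 0.33, adjusted p = 2.91e-06). All treated libraries were already slightly below the controls at 4 h, and far below them at 24 h. OAS1, a sensor of double-stranded RNA that makes oligoadenylates, was 9.92, 10.9 and 5.92 CPM in DMSO and 9.12, 6.89 and 5.62 CPM in i-BET858 at 4 h, and 12.9, 10.1 and 10.3 CPM in DMSO and 0.392, 0.528 and 0.556 CPM in i-BET858 at 24 h. Its groups overlapped at 4 h and were apart at 24 h, and the change was -4.18 (adjusted p = 1.23e-06). IFI44L had 445 counts in DMSO and 358 in i-BET858 at 4 h over all libraries, and 588 and 20 at 24 h. TRIM22, an antiviral ubiquitin ligase, had 392 and 380 counts at 4 h and 484 and 14 at 24 h, a change of -5.38 (adjusted p = 0.000192). BST2 (tetherin) went from 0.49 to -2.83. IFITM1, which blocks viral entry, rested on fewer counts, 38 in DMSO and 4 in i-BET858 at 24 h.

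Not all members fell. IRF7, a transcription factor that amplifies interferon production, was 11.8, 10 and 9.62 CPM in DMSO and 65.5, 72.9 and 56.2 CPM in i-BET858 at 4 h, and 11.3, 12.3 and 10.3 CPM in DMSO and 49, 57 and 55.9 CPM in i-BET858 at 24 h. IFI6 was sustained and higher as well, at 1.59 and 1.35. IFIT3, an RNA-binding effector, was instead lower at both times, at -2.25 and -2.75. IFIT5 was the member that changed upwards, from -1.01 to 0.26. IRF1 changed from 0.41 to -0.89. Exons of OAS1, TRIM22, IFITM1, IFI6, IFIT3 and IRF1 overlap other genes.

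**Figure D4:**
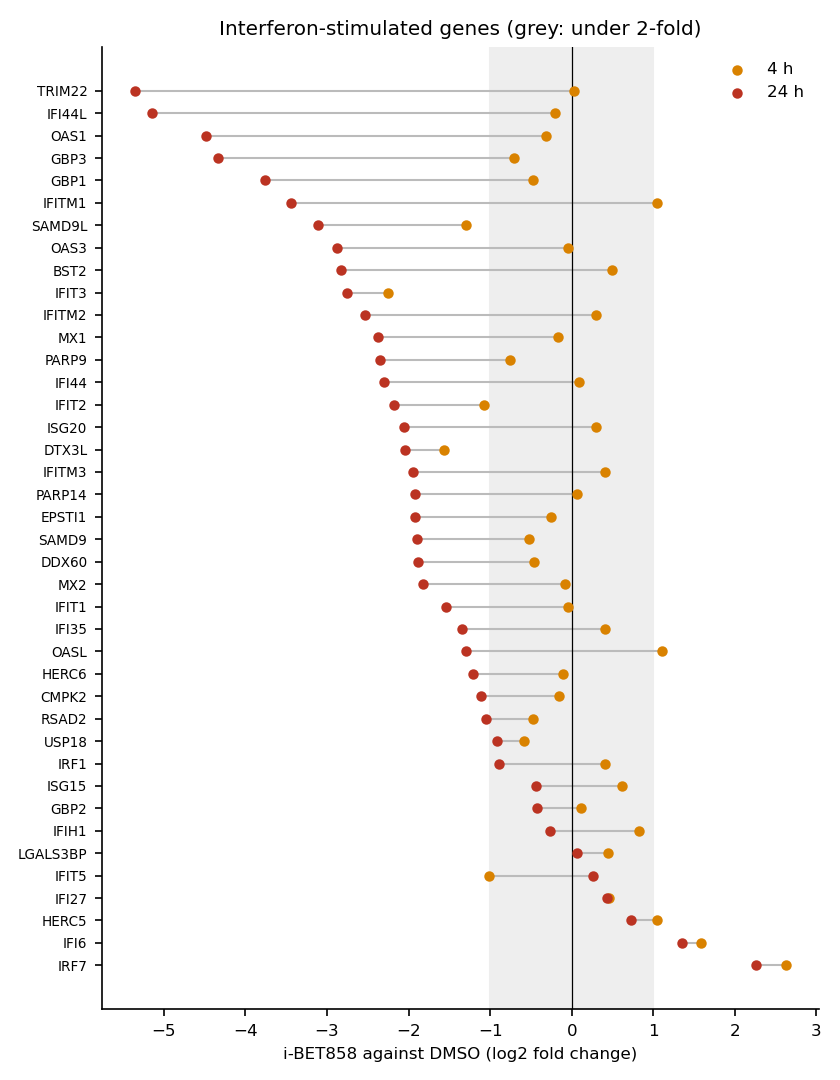
Log2 fold change of i-BET858 over DMSO at 4 h (orange) and 24 h (red) for 40 interferon-stimulated genes with more than 3 counts in every group, ordered by the 24 h effect; the grey band is under 2-fold. Most orange points lie in the band and most red points to the left of it, while IRF7 and IFI6 stay to the right at both times.

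Inflammatory genes changed downwards more often than upwards as well. Of 28 NF-kB targets and chemokines, 12 were lower at 24 h and 5 at 4 h, and the change was called downwards for 7 (25%) and upwards for 1 (3.57%). With replicates 1 and 2 alone 13 changed downwards. CCL28, a mucosal chemokine, was 59.3, 47.4 and 67.1 CPM in DMSO and 36.9, 34.9 and 58.7 CPM in i-BET858 at 4 h and 69.9, 73.1 and 90.6 CPM in DMSO and 5.68, 5.89 and 7.4 CPM in i-BET858 at 24 h, so that its groups overlapped only early. ICAM1, an adhesion receptor for leukocytes, was late and lower, at -2.21. CXCL8 (interleukin-8) was lower at both times, at -2.01 and -2.52. CASP1, the protease that processes interleukin-1 beta, had 331 counts in DMSO and 305 in i-BET858 at 4 h, and 283 and 9 at 24 h. CASP4, an inflammatory caspase next to it on chromosome 11, went from -0.47 to -1.82. The upward member of the list, BIRC2, an inhibitor of apoptosis, changed from -0.86 to 0.38. Exons of ICAM1 overlap a gene on the opposite strand.

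Regulators of apoptosis were split across the classes. BID, which links death receptors to mitochondria, was 135, 143 and 158 CPM in DMSO and 112, 106 and 140 CPM in i-BET858 at 4 h and 125, 140 and 187 CPM in DMSO and 30.7, 31.6 and 39.3 CPM in i-BET858 at 24 h. BCL2 itself was scarce, with 257 counts in DMSO and 36 in i-BET858 at 24 h, and its effect went from -0.29 to -3.11. BCL2L1 (BCL-XL), an anti-apoptotic protein, reversed. It stood at 184, 170 and 178 CPM in DMSO and 77.8, 65.8 and 77.9 CPM in i-BET858 at 4 h and at 172, 189 and 188 CPM in DMSO and 267, 308 and 291 CPM in i-BET858 at 24 h. This change of 1.92 (SE 0.14, adjusted p = 1.26e-07) took its treated libraries from below all controls to above all of them. BMF, a BH3-only protein, reversed in the same sense, from -0.89 to 0.71, and BCL2L11 (BIM) was sustained, at 1.68 and 1.21. Of 36 genes of this family, 5 (13.9%) changed upwards and 6 (16.7%) downwards. Exons of BCL2L1, BMF and BCL2L11 overlap genes on the opposite strand.

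Some matrix and epithelial genes were late and lower. Of 49 collagens, laminins and integrins, 12 (24.5%) changed downwards and 1 (2.04%) upwards, with a median change of -0.77, and with replicates 1 and 2 alone 19 changed downwards. ITGB6, the beta subunit of an integrin that activates TGF-beta, was 8.35, 9.61 and 7.37 CPM in DMSO and 6.06, 8.86 and 7.93 CPM in i-BET858 at 4 h, and 4.79, 4.61 and 8.31 CPM in DMSO and 0.762, 0.695 and 0.643 CPM in i-BET858 at 24 h. Of 7 fibroblast markers, COL3A1 and DCN had no count in 9 and 8 of the 12 libraries, while COL1A1 had 20.8 to 41.3 CPM and COL1A2 0.165 to 1.48 CPM in all. Their sum was 21.2 to 30.1 CPM in i-BET858 at 24 h and 24.7 to 42.9 CPM in the other groups, and its part in these results was not tested. LAMC3, a laminin chain, went from 0.44 to -1.64. The upward change was that of ITGB8, another integrin of TGF-beta activation, which reversed from -1.37 to 0.61. Of 44 claudins, keratins and desmosomal cadherins, 6 (13.6%) changed downwards and 1 (2.27%) upwards. KRT18, a keratin of simple epithelia and one of the epithelial markers, was 1546, 1343 and 1105 CPM in DMSO and 1774, 1567 and 1493 CPM in i-BET858 at 4 h, and 1637, 1549 and 1437 CPM in DMSO and 641, 633 and 577 CPM in i-BET858 at 24 h. CLDN1, a tight junction protein, was lower at both times and more so at 24 h (-0.65 and -1.94). The mucin MUC1 was late and lower, at 26.2, 26.1 and 36.7 CPM in DMSO and 4.31, 3.92 and 9.97 CPM in i-BET858 at 24 h. The summed epithelial markers, KRT18 among them, were also lower in these 24 h libraries. The 8 markers other than keratins summed to 2005 to 2200 CPM there and to 1840 to 2412 CPM in the other groups. The part of the marker sum in these results was not tested. Exons of ITGB6, ITGB8, KRT18 and MUC1 overlap other genes.

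WNT pathway genes changed downwards in 10 of 46 (21.7%) and upwards in 0, where 7 were upwards at an unadjusted p under 0.05 in edgeR and DESeq2 called 0. With replicates 1 and 2 alone and with total library size 1 was upwards. LGR5, the R-spondin receptor, was 12.2, 10.3 and 14.2 CPM in DMSO and 1.72, 1.83 and 2.98 CPM in i-BET858 at 24 h, after 8.91, 12 and 7.99 CPM in DMSO and 5.26, 7.78 and 10.3 CPM in i-BET858 at 4 h. AXIN2, a feedback target of beta-catenin, reversed from 0.67 to -1.11. Of the frizzled receptors, FZD4, FZD7 and FZD8 were transient and initially higher, FZD1, FZD5 and FZD9 were sustained and higher, and FZD2 was late and lower. Exons of LGR5, AXIN2, FZD4 and FZD8 overlap other genes.

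Late rises were fewer. CCNA1, an A-type cyclin normally found in the germ line, held 19.9, 29.9 and 14.4 CPM in DMSO and 24.1, 30.2 and 17.2 CPM in i-BET858 at 4 h. At 24 h it had 17.7, 22.3 and 11.9 CPM in DMSO and 118, 127 and 114 CPM in i-BET858, so that overlapping groups came apart (change 2.64, SE 0.40, adjusted p = 0.000106). DNER, a neuronal transmembrane protein with EGF repeats, was 1.5, 1.74 and 1.82 CPM in i-BET858 at 4 h and 7.86, 7.03 and 5.44 CPM at 24 h, beside 1.04, 1.08 and 1.25 CPM in DMSO at 4 h and 0.667, 0.505 and 0.414 CPM in DMSO at 24 h. SCN9A, a voltage-gated sodium channel, went from 0.28 to 3.09, and HMGCLL1, a lyase of ketone body synthesis, from 0.12 to 2.62. MAP1B, a microtubule-associated protein of axons, had a change of 2.31. Of 42 synaptic and neuronal genes, 11 were higher at 4 h and 13 at 24 h, with 8 sustained and higher and a median effect of 0.61 at 24 h. The change was called upwards for 3 (7.14%) and downwards for 4 (9.52%), or for 5 and 8 with replicates 1 and 2 alone and 5 and 5 with the replicate block within each time. Late higher genes were also long, with a median span of 68.6 kb among coding genes, beside 34.1 kb for all coding genes tested. Exons of SCN9A overlap a gene on the opposite strand.

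The initially higher reversing genes named by size of change, among coding genes whose mean log2 CPM reached 1, were HPN, NCKAP5, ADRA2A and PIGZ. HPN, the serine protease hepsin, was 8.66, 7.22 and 9.78 CPM in DMSO and 14.3, 10.9 and 16.1 CPM in i-BET858 at 4 h, and 8.94, 7.78 and 9.24 CPM in DMSO and 1.48, 1.42 and 1.37 CPM in i-BET858 at 24 h. ADRA2A, an inhibitory adrenergic receptor, was 43.9, 33.4 and 45.8 CPM in DMSO and 89.8, 91.3 and 115 CPM in i-BET858 at 4 h and 22.1, 26.2 and 30 CPM in DMSO and 6.18, 7.34 and 6.2 CPM in i-BET858 at 24 h. In both genes the treated libraries lay above all controls at 4 h and below all of them at 24 h. The change of ADRA2A was -3.26 (SE 0.33, adjusted p = 2.4e-06). NCKAP5 went from 0.48 to -2.79, and PIGZ, a mannosyltransferase of lipid anchors, from 1.09 to -2.02. ZNF703, a transcriptional corepressor, held 13.5, 11.7 and 13.4 CPM in DMSO and 36.3, 37.8 and 27.2 CPM in i-BET858 at 4 h, then 17.2, 18.8 and 32.6 CPM in DMSO and 10.1, 10.6 and 7.81 CPM in i-BET858 at 24 h. Initially higher reversing genes were short, with a median span of 14.6 kb. Exons of HPN overlap a gene on the opposite strand.

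Most reversals were shallow, since only 14 of the 348 passed 2-fold at both times, 11 initially higher and 3 initially lower. Besides ADRA2A, PIGZ and ZNF703 the initially higher ones were DUSP2, DDN, KISS1R, CASKIN1, BRINP1, MEIOB, HSD11B2 and HHEX. They were singled out by this rule after their values had been seen. DUSP2, a nuclear phosphatase of MAP kinases, went from 1.70 to -1.76, and KISS1R, the kisspeptin receptor, from 1.38 to -1.68. HSD11B2, which inactivates cortisol, went from 1.26 to -1.19, and HHEX, a homeobox repressor, from 1.10 to -1.06. The initially lower ones were TMCC2, the long noncoding RNA UCA1 and a gene without a symbol. Exons of DDN, CASKIN1, MEIOB, HSD11B2 and UCA1 overlap other genes.

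TMCC2, a coiled-coil protein of the endoplasmic reticulum, was 16.6, 19.3 and 19.9 CPM in DMSO and 5.66, 7.91 and 7.93 CPM in i-BET858 at 4 h, and 14.4, 13.8 and 16.1 CPM in DMSO and 36.4, 36.7 and 40.8 CPM in i-BET858 at 24 h, a change of 2.74 (SE 0.24, adjusted p = 6.21e-07). SOX2, a pluripotency factor that is also expressed in the fallopian tube epithelium, was 88.2, 91.2 and 99.3 CPM in DMSO and 69.5, 76.8 and 70.7 CPM in i-BET858 at 4 h and 95.9, 95.3 and 121 CPM in DMSO and 247, 234 and 217 CPM in i-BET858 at 24 h. The treated libraries of both genes were below all controls first and above all of them later. CEP97, a centriolar cap protein, went from -1.79 to 0.49, and THAP6 from -1.70 to 0.81. GCLM, the modifier subunit of the enzyme that starts glutathione synthesis, went from -0.56 to 0.94. Exons of THAP6 overlap a gene on the opposite strand.

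Some DNA repair and mitosis genes were lower early and moved upwards. Of 49 genes of DNA break repair, 7 were lower at 4 h and 3 at 24 h, and the change was called upwards for 7 (14.3%) and downwards for 0. At an unadjusted p under 0.05 in edgeR 8 were downwards, and DESeq2 and the replicate block within each time each called 2. LIG4, the ligase of end joining, was 10.7, 13.1 and 10.4 CPM in DMSO and 4.67, 4.92 and 4.06 CPM in i-BET858 at 4 h, and 8.94, 7.85 and 5.99 CPM in DMSO and 12.3, 11.6 and 11.4 CPM in i-BET858 at 24 h. FANCM, a translocase of the Fanconi anaemia pathway, was 16.9, 18.3 and 18 CPM in DMSO and 7.48, 11.2 and 2.7 CPM in i-BET858 at 4 h, with its lowest treated value in replicate 3, and 15, 11.1 and 12.1 CPM in DMSO and 25.6, 23.3 and 18.7 CPM in i-BET858 at 24 h. Both reversed, as i-BET858 was below all controls first and above them later. TOPBP1, an activator of the ATR kinase, had an effect of -1.20 at 4 h and -0.35 at 24 h, but the change of 0.85 did not reach 2-fold. Of 56 mitosis genes, 5 (8.93%) changed upwards and 1 (1.79%) downwards, with a median change of 0.35. The upward share is near the 6.87% of all transcripts. TTK, a kinase of the spindle checkpoint, went from -0.78 to 0.44. AURKA and PLK1 had changes of 0.68 and 0.78, under 2-fold, and FOXM1 of 0.30 (adjusted p = 0.47). Exons of TOPBP1, PLK1 and FOXM1 overlap other genes.

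Genes of the ribosome and of oxidative phosphorylation had small changes that were mostly below 0. Of 79 cytosolic ribosomal protein genes, 2 (2.53%) changed downwards and 0 upwards, where 0 were also upwards at an unadjusted p under 0.05 and with DESeq2. At an unadjusted p under 0.05, 46 were downwards, and with replicates 1 and 2 alone 1 was called downwards. The median effect of the 79 genes went from 0.42 at 4 h to -0.20 at 24 h, a median change of -0.58, and 76 of 79 had a change below 0. RPL22, which was called, went from 208, 212 and 175 CPM in DMSO and 240, 240 and 240 CPM in i-BET858 at 4 h to 193, 197 and 162 CPM in DMSO and 95, 98.2 and 92.3 CPM in i-BET858 at 24 h. Nuclear genes of oxidative phosphorylation were alike in this, with 5 of 74 (6.76%) changed downwards and a median change of -0.54. Upwards there were 0 in edgeR and DESeq2 and at an unadjusted p under 0.05, where 43 were downwards. With replicates 1 and 2 alone 3 changed downwards. ATP5MC1, a subunit of the membrane rotor of ATP synthase, was late and lower, at -1.33. No proteasome, cytosolic tRNA synthetase or splicing factor gene had a called change among 32, 23 and 33 tested in edgeR, but DESeq2 called 1 tRNA synthetase downwards and the replicate block within each time called 1 splicing factor upwards. At an unadjusted p under 0.05, 10 proteasome genes changed upwards and 3 downwards, 1 and 5 tRNA synthetases, and 9 and 3 splicing factors. Ribosomal protein genes have many processed copies, and RPL22 overlaps other genes, so single values are less certain than the group's median.

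**Figure D5:**
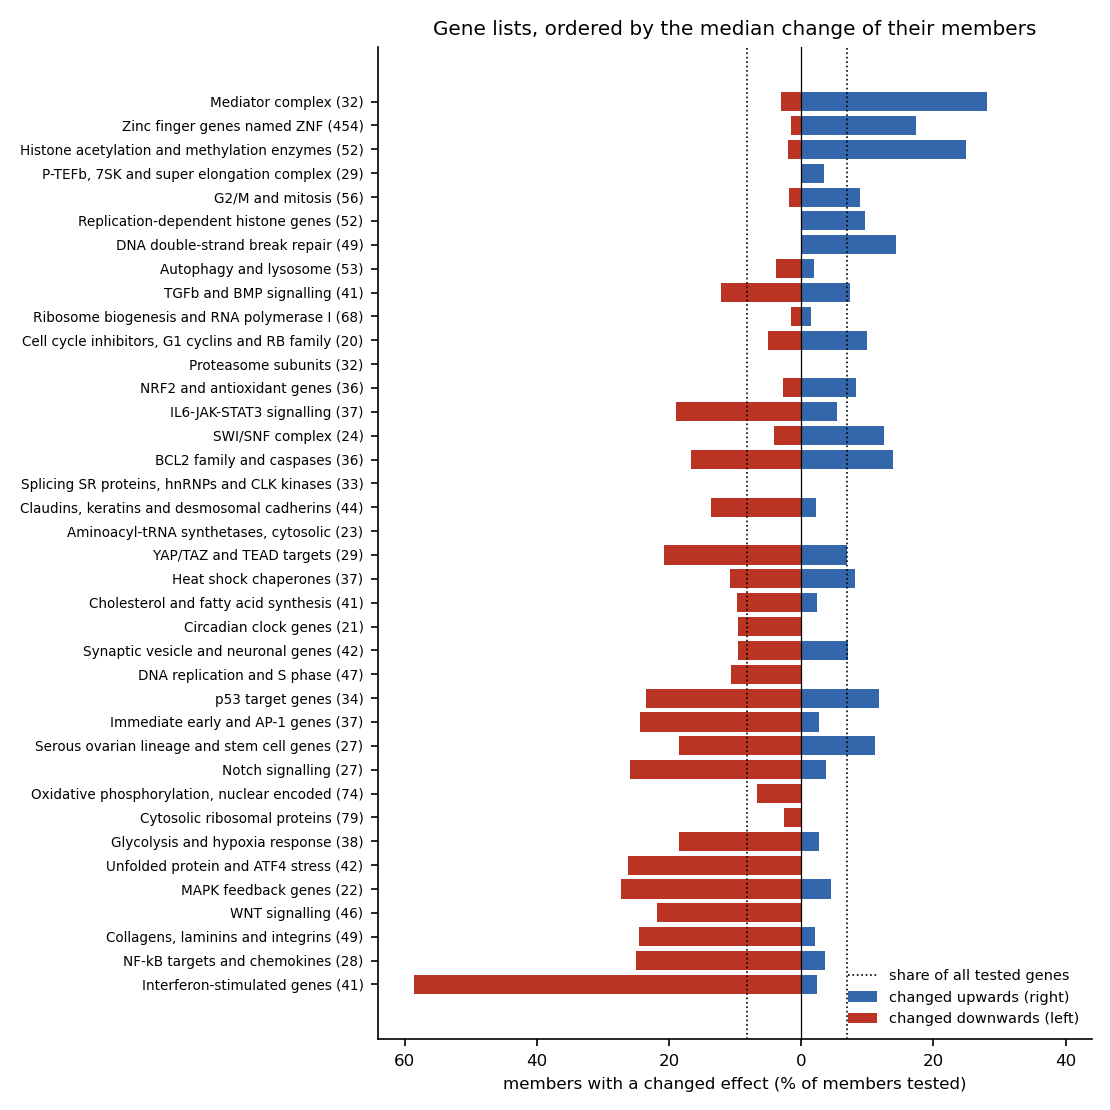
Share of tested members whose i-BET858 effect changed upwards (blue, right) or downwards (red, left) between 4 and 24 h, for gene lists with at least 20 tested members (number in brackets), ordered by their median change; dotted lines mark the shares over all transcripts, 6.87% and 8.21%. Mediator, ZNF and histone enzyme genes stand at the top, and interferon-stimulated genes, with 58.5% changed downwards, at the bottom.

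The span of a gene differed between classes as a description. Coding transcripts that were transient and initially higher had a median span of 15.9 kb, weakened higher ones 13.8 kb and initially higher reversing ones 14.6 kb. Initially lower transient and reversing genes had medians of 37.6 and 52 kb. The classes were not balanced for expression level, and the part of gene length in these differences was not tested.

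The same times were also measured with i-BET151, a related BET inhibitor at the same dose, against the same DMSO libraries. The comparisons share these controls, so the values stand side by side only. In the i-BET858 transient classes the median i-BET151 effect was 1.17 at 4 h and 0.04 at 24 h where initially higher, and -0.78 and 0.01 where initially lower. In the late classes it was 0.12 and 1.22 where higher, and -0.15 and -1.56 where lower. Reversing transcripts had medians of 0.33 and -0.70, or -0.34 and 0.54. For GBP1 the i-BET151 effect was -0.70 at 4 h and -3.43 at 24 h, for NRARP 2.78 and 0.86, for BCL2L1 -0.94 and 0.27 and for ADRA2A 0.49 and -1.85.

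As the threshold is sharp, transcripts just inside and outside it differ little. PRRG2 (-1.00031), MPLKIP (1.00061) and THUMPD1 (1.00100) lay just inside the limit for the change of effect, and FADS3 (-0.99967) and JDP2 (-0.99959) just outside it. Replicate 3 can be set beside the others. Of 3767 transcripts called with replicates 1 and 2 alone and tested with all, 3359 (89.2%) changed in the same direction in replicate 3, compared with 72.2% of those not called. For transient transcripts this was 774 of 908 (85.2%), for late ones 1393 of 1550 (89.9%) and for reversing ones 580 of 601 (96.5%).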

How the data were processed

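The deposited tables give, per the labels and the study's methods, raw read counts per gene that the authors made by aligning paired 150-base reads to GRCh38 with STAR and its gene counting option. The annotation and the strand column are not given in the sources used here. Gene names came from GENCODE 44, which held 99.4% of the identifiers.

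All 18 libraries (6 groups) were fitted together in edgeR 4.0.16 (R 4.3.3) with TMM scaling, a filter on low counts by group and the quasi-likelihood test, with Benjamini-Hochberg adjustment over 18154 genes. Contrasts were the effect at 4 h, at 24 h and their difference. Named genes were, in each class and direction, the 4 with the largest change (for sustained, the largest smaller effect) among protein-coding genes whose mean log2 CPM reached 1 and whose change had 1 sign in 3 of 3 replicate numbers, together with genes of the paper and of gene lists. The members and lists were chosen with earlier results of these data known. CPM were computed on TMM-scaled library sizes and, for markers, on total counts. SE is the standard error of a log2 fold change, and 3 replicates per group limit it.

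Alternatives were DESeq2 1.42.0 and its size factors, total library size, other filters, other thresholds, the replicate number as a block, and each replicate left out. On counts simulated for 18154 genes, of which 17768 passed the filter, a gene was found where the adjusted p was under 0.05, without the fold limit. By this rule edgeR found 32 of 100 genes changed by 1 on the log2 scale and 75 of 100 changed by 2, with 6 false ones among 17954. DESeq2 found 60, 81 and 29. The simulated counts held no effect at 4 h and fewer changed genes than the data, so they do not measure the calls used here. Libraries with the same number in DMSO and i-BET858 deviated together within each time (correlations of 0.131 to 0.33). Within a time, libraries of replicates 1 and 2 with different numbers correlated at -0.0152 to 0.222, and those of replicate 3 with other numbers at -0.301 to -0.0761, so that mainly replicate 3 stood apart, and across times the correlations were 0.00603 to 0.318 for the same number and -0.333 to 0.288 for different numbers. The pairing comes from these values and the shared numbers, and the labels do not say what a number stands for. Promoter sequences were from RefSeq (GRCh38.p14) and matched 12371 of 18154 genes by symbol. Some genes are not reported here.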

Additional observations from a re-analysis of the deposited data

Results flagged for a closer look

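The effect of i-BET858 differed between 4 and 24 h, by the test of the difference itself, for 2738 transcripts, among them 623 transient, 1174 late and 348 reversing ones. The first gene named in each class, among coding genes above the level stated for naming, carries the same test. KDR changed by -3.27 and DACT2 by 2.94 among transient genes, DNER by 3.09 and TRIM22 by -5.38 among late ones, ARMH4 by 2.19 and CRB2 by -4.52 among strengthened ones, PGF by -3.01 and IL1R1 by 1.38 among weakened ones, and HPN by -3.29 and TMCC2 by 2.74 among reversing ones, all on the log2 scale. These genes were picked for the size of their change, so that the sizes are a description.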

How the results depend on the processing

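Of 242 named genes, 204 had a called change of effect, and 170 of these kept the call under every alternative tried, each library left out included. The sign of the change turned for 11 genes, of which 0 had a called change. Counts of changed, transient, sustained and late transcripts moved mainly with the threshold, and the reversing count more with the replicate block and with replicates 1 and 2 alone. With replicates 1 and 2 alone 3786 transcripts changed, 1396 upwards and 2390 downwards, and 917 were transient. With the adjusted p alone, 4941 transcripts changed, 1439 were transient, 2057 sustained and 2200 late, and with a fold of at least 1.5 these numbers were 4489, 1182, 1514 and 1892. The reversing class grew from 348 to 626 with a replicate block shared by both times, to 692 with the replicate block within each time and to 601 with replicates 1 and 2 alone. It was 479 with the adjusted p alone and 476 with a fold of at least 1.5. The block lost no call of a named gene. With each replicate left out in turn, 2416 to 2829 transcripts changed, 574 to 646 were transient, 714 to 925 sustained, 1049 to 1232 late and 252 to 350 reversing. With replicates 1 and 2 alone, the uncalled changes were -0.06 for LIF, -0.04 for WNT5A, -0.11 for SERPINI1 and -0.08 for CTR9, and with at least 10 counts in every library -0.01 for SERPINI1 and -0.03 for CTR9. With each replicate left out in turn, these changes, which were not called in any of these settings, ran from -0.85 to 1.03 for GFPT2, -0.76 to 0.30 for DISP3, -0.26 to 0.67 for LIF, -0.24 to 0.12 for NOG, -0.17 to 0.01 for HEXIM1, -0.08 to 0.39 for WNT5A, -0.05 to 0.35 for BRD3, -0.16 to 0.04 for MCL1, -0.17 to 0.05 for ELL2, -0.32 to 0.47 for SERPINI1 and -0.06 to 0.14 for CTR9. The cause was not tested. Depth limits low transcripts, since 381 of those tested had 3 counts or fewer in a group.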
